A study of Mus musculus with 6 samples.

Results

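Macrophages, monocytes and antigen-presenting cells were followed in newborn mouse calvaria through 36 genes, chosen by name for their known use in these cells and for lying outside the osteoclast programme. All 36 were found among the 24346 gene names of the deposited tables. Of these, 34 averaged 1 FPKM or more across the libraries and were tested. FPKM divide the fragments of a gene by its transcript length and by the mapped fragments of its library, so levels of different genes can be set side by side.

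The calvaria forms the roof over the brain, and the dissection kept the interparietal and occipital bones and left out the ear cartilages. All 6 libraries came from newborns with the floxed Pth1r genotype given as Pth1rfl/fl. The 3 control libraries carry these alleles alone, and the 3 labelled mutant also carry Prx1-Cre. Prx1-Cre is a driver of limb and skull mesenchyme rather than of blood-derived cells. The sources used here do not give strain, sex, litter, exact age or the floxed exons. Nothing in the labels says that the skulls came from separate litters, so p-values measure the spread between these samples.

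Macrophages and osteoclasts both descend from myeloid precursors and both depend on signalling by the receptor Csf1r. Osteoclasts fuse into giant cells that dissolve bone, whereas resident macrophages of bone clear dying cells and debris. Genes such as Adgre1, the C1q chains and Mrc1 are known from resident macrophages and are low in mature osteoclasts. The comparison asks whether these other myeloid genes move along with osteoclast genes in the libraries labelled mutant.

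The targeted gene goes against the labels. Pth1r, the receptor of parathyroid hormone and its related protein, was at 89.2, 93.3 and 102 FPKM in controls and reached 127, 125 and 142 in the libraries labelled mutant (limma, adjusted p = 0.065; two-sided exact permutation test, p = 0.1, the smallest that 3 against 3 allow). The floxed exons are not given, and the span of Pth1r overlaps Myl3 on the other strand, so these gene-level values cannot check the labels. Every direction below is therefore that of the labels. The sources used here give no read totals, and the steps of the smallest values gave depths from 0.703 to 1 relative to control 1, lowest in library 3 labelled mutant. Both groups held both sexes, since Xist was at 42.5 to 43.0 FPKM in controls 1 and 3 and library 1 labelled mutant, and at 0.0104 FPKM or less in the others. Bone markers were present: Runx2, the master factor of bone-forming cells, was at 28.8 to 41.9 FPKM, and Col1a1 at 9427 FPKM or more in every library.

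Macrophage genes were plainly present in all 6 libraries. The most abundant member was Pf4, a chemokine of platelets and of resident macrophages, with a mean of 138 FPKM. The C1q chains followed at 96.1 (C1qb), 92.2 (C1qc) and 75.2 FPKM (C1qa), then the lysozyme gene Lyz2 at 63.9 and Axl at 58.2. Pf4 lay above C1qb throughout (115 to 153 against 83.1 to 108 FPKM), while each later pair of neighbours down to Axl overlapped in its values. Axl in turn lay above the next gene, Stab1 (50.5 FPKM or more against 38.1 or less). At the low end lay Cybb at 1.502, Ptprc at 2.06 and Cd14 at 2.74 FPKM.

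Both members under 1 FPKM were ones that a monocyte or tissue-resident label leans on. Ccr2, the receptor by which monocytes leave the marrow, lay between 0.711 and 0.983 FPKM over the 6 libraries. Timd4, a phosphatidylserine receptor of some long-lived resident macrophages, was listed at 0 in control 2 and did not exceed 0.204 FPKM elsewhere. Neither was tested, and the monocyte side of the set therefore rests on few genes.

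**Figure D1:**
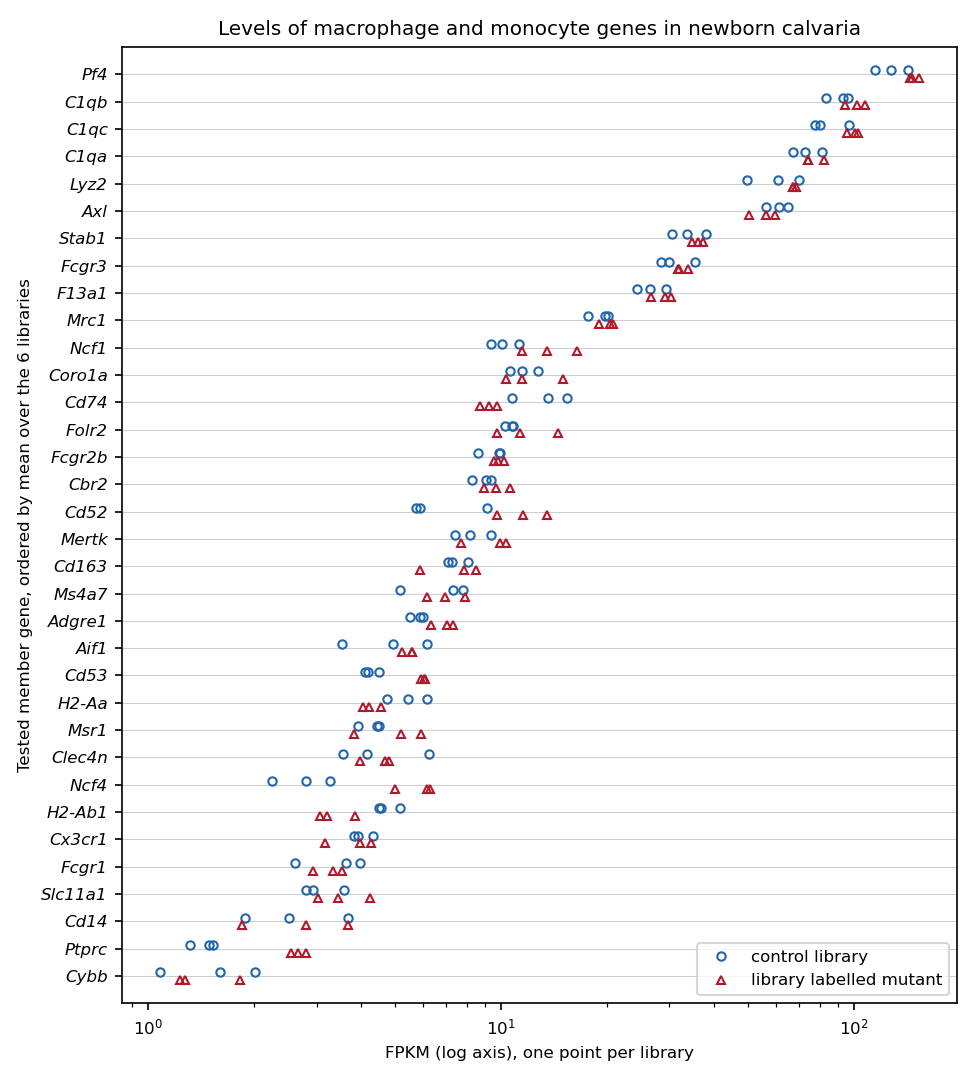
FPKM of the 34 tested genes on a log axis, with 1 circle per control library and 1 triangle per library labelled mutant, ordered by the mean over the 6 libraries. Levels run from a mean of 1.502 FPKM for Cybb to 138 for Pf4, and for most genes circles and triangles intermingle.

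Of the 34 tested members, 1 rose and 0 fell in the libraries labelled mutant (limma on log2(FPKM + 1), Benjamini-Hochberg adjustment over 13180 genes, threshold 0.05). The background over all genes was 0.524% for rises and 0.0835% for falls. At an unadjusted p of 0.05, 8 members were higher and 3 lower, where all genes gave 5.91% and 4.62%. A higher mean was found for 25 members and a lower one for 9, where 50.5% of all genes had a higher one. The members had a median log2 change of 0.10 against 0.00 (0.00147) over all tested genes. For 28 of the 34, the 95% limma interval of the change lay within 1.5-fold either way, as it did for 87.3% of all genes. The changes farthest from 0 came from the oxidase, leukocyte and class II roles.

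Genes of resident macrophages and clearance did not pass. Pf4 was at 128, 143 and 115 FPKM in controls and 146, 153 and 144 in the libraries labelled mutant. Its groups just failed to overlap, and its log2 change of 0.21 ± 0.09 (SE) had an adjusted p of 0.461 (limma, Benjamini-Hochberg). Adgre1, which encodes the F4/80 antigen of mouse macrophages, was at 5.51, 5.995 and 5.90 FPKM in controls and 6.34, 7.01 and 7.30 in the libraries labelled mutant. It too lay above every control, at a ratio of means of 1.19 (log2 change 0.21, 95% interval 0.03 to 0.39; limma adjusted p = 0.361).

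For the other 10 tested genes of this role, the groups overlapped. Scavenger receptors had ratios of means near 1, with 1.05 for the mannose receptor gene Mrc1, 1.06 for Stab1 and 1.16 for Msr1. Cd163, the receptor that takes up haemoglobin bound to haptoglobin, had 0.992. Mertk and Axl, receptor tyrosine kinases that sense dying cells, had 1.13 and 0.911. Folr2, a folate receptor of resident macrophages, had 1.12, F13a1, a transglutaminase gene, 1.08, Cbr2, a carbonyl reductase gene, 1.09, and Ms4a7 1.04. Axl is also known from mesenchymal cells, so its level is not a measure of macrophages alone. The span of Stab1 overlaps Nt5dc2 on the other strand.

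The bridging ligands and growth factors of these receptors gave no call. Of 10 listed ligands and co-receptors, 0 passed in limma, and 1 was higher and 0 lower at an unadjusted p of 0.05. Gas6, a ligand of Axl and Mertk, had a ratio of 0.922, and Pros1, the other such ligand, 1.03. The gene at the unadjusted threshold was Csf1, the growth factor of macrophages and osteoclasts, with a log2 change of 0.30 ± 0.06 (SE; limma adjusted p = 0.127).

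The C1q genes form the recognition part of complement and lie side by side on chromosome 4, between positions 136880129 and 136898803 of GRCm38, all on the minus strand. C1qb was at 93.0, 96.3 and 83.1 FPKM in controls and 94.5, 108 and 102 in the libraries labelled mutant. C1qc was at 77.4, 96.8 and 80.01 FPKM and then 95.4, 101 and 103. Groups overlapped for all 3 chains, and the log2 changes of 0.16 for C1qb and 0.24 for C1qc had adjusted p of 0.566 and 0.416 (limma, Benjamini-Hochberg). C1qa had the smallest change, 0.07 on the log2 scale with a 95% interval from -0.13 to 0.26. Control values of C1qa per C1qb were 0.780 to 0.842, and those of the libraries labelled mutant 0.728 to 0.786. Of 5 tested complement partners (C1ra, C1s1, C2, C3 and C4b), 0 passed.

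Monocyte and Fc receptor genes gave no call. Lyz2, which encodes lysozyme of myeloid cells, was at 49.8, 69.8 and 61.1 FPKM in controls and 67.3, 67.3 and 68.4 in the libraries labelled mutant. Control 1 lay lowest and the groups overlapped (log2 change 0.18, limma adjusted p = 0.684). Cd14, the lipopolysaccharide co-receptor, had a ratio of 1.03 and Cx3cr1, the fractalkine receptor, 0.944. The annotated span of Cx3cr1 overlaps 5 other protein-coding genes on both strands (Wdr48, Gorasp1, Ttc21a, Csrnp1 and Xirp1). Fcgr3, an activating receptor for antibody, was at 29.9, 35.5 and 28.3 FPKM and then 33.8, 31.7 and 31.9. Those values overlapped fully, and the ratios of Fcgr2b, Fcgr1 and the lectin receptor gene Clec4n were 1.04, 0.958 and 0.964. Fcgr2b and Fcgr3 share closely similar stretches, as does Lyz2 with Lyz1, so their split of reads is uncertain.

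The member that rose was Ncf4. It encodes p40phox, one of the cytosolic subunits that assemble with the membrane protein of Cybb into the oxidase by which phagocytes make superoxide. Ncf4 was at 2.80, 3.27 and 2.24 FPKM in controls and 6.16, 6.29 and 4.997 in the libraries labelled mutant. Every library labelled mutant lay above every control, with means of 2.77 ± 0.514 and 5.81 ± 0.711 FPKM (SD, n = 3 each) and a ratio of 2.10. The log2 change of 0.86 ± 0.13 (SE) passed by a small margin (limma, Benjamini-Hochberg adjusted p = 0.0477). Leaving out any 1 library ended the call (adjusted p from 0.0776 to 0.185, and from 0.0361 over all settings tried), so it is a borderline result. The gene lies on the plus strand of chromosome 15, from 78244801 to 78262580 of GRCm38, and its span holds no other protein-coding gene.

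The other oxidase members did not pass, and their ratios differed. Ncf1, the p47phox subunit, was at 11.2, 10.03 and 9.38 FPKM in controls and 16.4, 13.5 and 11.4 in the libraries labelled mutant, where library 3 only just cleared control 1. Its log2 change of 0.39 ± 0.13 (SE) did not pass (limma adjusted p = 0.324), and its span overlaps Gtf2ird2 on the other strand. Cybb, the catalytic membrane subunit, was at 1.60, 1.08 and 2.001 FPKM and then 1.27, 1.23 and 1.82, without separation. Ncf4 per Cybb was accordingly 1.12 to 3.02 in controls and 2.74 to 5.10 in the libraries labelled mutant, ranges that overlap. Slc11a1, a metal transporter of the phagosome, had a ratio of 1.15.

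Rac2, a listed partner of the oxidase, rose. It is the small GTPase of blood cells that activates the complex, and was at 6.38, 7.53 and 6.96 FPKM in controls and 13.7, 14.4 and 13.7 in the libraries labelled mutant. Its log2 change was 0.91 ± 0.07 (SE; limma, Benjamini-Hochberg adjusted p = 0.00415), and it passed in each of the 14 other settings tried. Cyba, which pairs with Cybb in the membrane, had a ratio of 1.05 without passing.

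**Figure D2:**
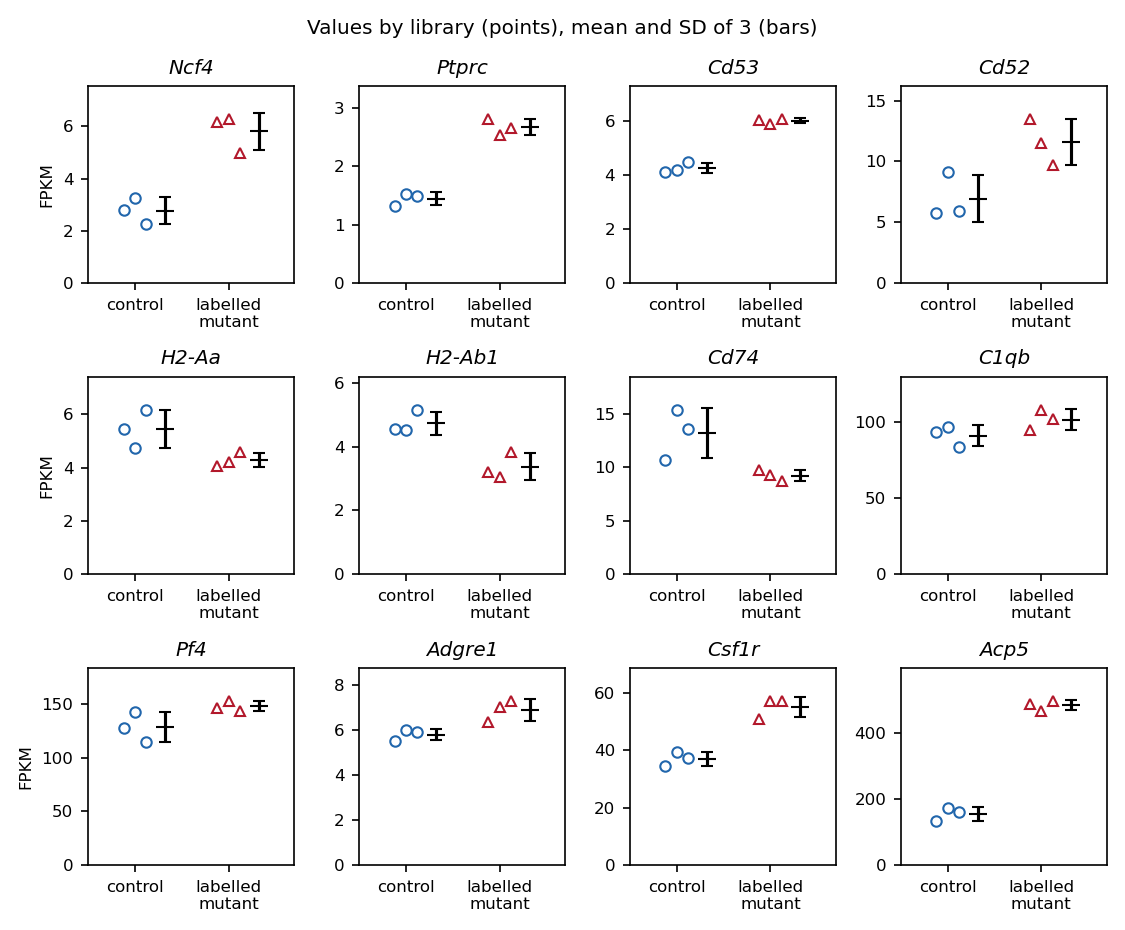
FPKM in each library (circles for control, triangles for labelled mutant) with mean and SD of 3, for 10 member genes and, for comparison, Csf1r and Acp5. Axes start at 0. Ncf4, Ptprc, Cd53 and Cd52 lie higher and H2-Aa, H2-Ab1 and Cd74 lower in all 3 libraries labelled mutant, while C1qb overlaps.

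General leukocyte genes split into a pair of patterns. Ptprc, which encodes the leukocyte phosphatase CD45, was at 1.32, 1.53 and 1.49 FPKM in controls and 2.81, 2.54 and 2.65 in the libraries labelled mutant. The groups lay far apart relative to their spread, with means of 1.44 ± 0.113 and 2.67 ± 0.135 FPKM (SD, n = 3 each), yet the gene just missed the threshold (log2 change 0.59 ± 0.09 SE, limma adjusted p = 0.0572). With quantile normalization or robust eBayes it passed (adjusted p = 0.0498 in both, limma). In the other settings it did not, with a limma adjusted p of 0.192 under the replicate block, 0.137 with a sex term and 0.123 to 0.220 with any 1 library left out. It spans 138062861 to 138175708 on the minus strand of chromosome 1.

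Cd53, a tetraspanin of blood cells, was at 4.13, 4.20 and 4.49 FPKM in controls and 6.06, 5.92 and 6.10 in the libraries labelled mutant. It too was separated between groups and also missed the threshold, with a ratio of 1.41 (log2 change 0.41 ± 0.07 SE, limma adjusted p = 0.0588). Cd52, a small surface glycoprotein gene, was at 5.75, 9.15 and 5.90 FPKM and then 13.5, 11.5 and 9.71. Library 3 labelled mutant sat just above control 2, and the ratio of 1.67 did not pass (limma adjusted p = 0.22). The span of Cd52 overlaps Crybg2 on the other strand, and the sources used here do not give the use of strand in counting.

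Aif1 and Coro1a, also general leukocyte genes, did not separate. Coro1a, an actin regulator, was at 10.6, 12.7 and 11.5 FPKM in controls and 10.3, 15.0 and 11.5 in the libraries labelled mutant. Its span overlaps Bola2 on the other strand. Aif1, the calcium-binding protein IBA1 used to stain macrophages, had a ratio of 1.12.

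Other blood cells also express the leukocyte genes. The 10 neutrophil marker genes summed to 39.9 to 55.6 FPKM in controls and to 102, 79.8 and 48.5 in libraries 1 to 3 labelled mutant. In that list 0 of 5 tested genes passed in limma (2 were higher at an unadjusted p of 0.05), and the granule enzyme genes Elane and Mpo stayed under 0.5 FPKM in every library. In library 3, where the neutrophil sum was within the range of controls, Cd52 was at its lowest of the 3 (9.71 FPKM), Ptprc lay between the other two (2.65) and Cd53 was at its highest (6.10). The part of neutrophils in the leukocyte values was not tested. The 9 lymphocyte genes summed to 3.95 to 4.94 FPKM in controls and 4.26 to 5.14 in the libraries labelled mutant. The sum over the osteoclast list was 688 to 772 FPKM in controls and 1761 to 1909 in the libraries labelled mutant. The part of osteoclasts in the leukocyte values was not tested. In whole tissue, more cells of a type cannot be told apart from more RNA per cell.

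The antigen presentation members were the only role group with all means lower. MHC class II molecules, built from an alpha and a beta chain, display peptides to helper T cells, and the invariant chain made from Cd74 guides their assembly. Cd74 was at 10.7, 15.4 and 13.6 FPKM in controls and 9.72, 9.27 and 8.68 in the libraries labelled mutant. All 3 of the latter lay under the lowest control, at a ratio of 0.697 (log2 change -0.46, 95% interval -0.76 to -0.17; limma adjusted p = 0.22).

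The chain genes had the same order. H2-Ab1, the beta chain, was at 4.56, 4.52 and 5.16 FPKM in controls and 3.22, 3.06 and 3.84 in the libraries labelled mutant (ratio 0.711, limma adjusted p = 0.191). H2-Aa, the alpha chain, was at 5.46, 4.74 and 6.17 FPKM and then 4.06, 4.21 and 4.57 (ratio 0.784, limma adjusted p = 0.351). Groups did not overlap for any of the 3 genes, and none passed. H2-Ab1 spans 34257689 to 34269419 on the plus strand and H2-Aa 34282744 to 34287823 on the minus strand of chromosome 17.

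H2-Ab1 per Adgre1 was 0.753 to 0.875 in controls and 0.437 to 0.527 in the libraries labelled mutant. Every library labelled mutant lay below every control for H2-Ab1 and above every control for Adgre1. The separation of this ratio was therefore fixed by those values and is no further result. Of the 7 listed class II partners, 3 were tested and 0 passed in limma, with 2 lower at an unadjusted p of 0.05. These were H2-DMb1, part of the peptide exchange factor, at a ratio of 0.648, and H2-Eb1, another beta chain, at 0.686. The third, H2-DMa, had 0.840. Ciita, the master activator of class II genes, was under 0.2 FPKM in all 6 libraries and was not tested.

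Dendritic cells and B cells are known for class II expression. Of the 8 dendritic cell markers 6 were under the filter, and the list went both ways. Both tested ones, Zbtb46 and Batf3, had higher means, as did Flt3, Xcr1, Clec9a and Itgax under the filter. Cd209a and Siglech, also under it, were lower in every library labelled mutant than in every control, at 0.408, 0.242 and 0.313 against 0.168, 0.0525 and 0.0581 FPKM for Cd209a and a ratio of 0.287 for Siglech. The B cell gene Ms4a1 was at 0.217 FPKM or less in every library. The part of these cells in the lower class II values was not tested.

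Class II promoters carry a shared set of elements just before the start, among them the Y box, which contains the letters GATTGG. Stretches of 80 bases from the RefSeq promoter table (GRCm38.p6) are shown for the H2-Aa member and its H2-Eb1 partner, which both had lower values, with each GATTGG or its reverse complement in capitals. The first lies at chr17:34287830-34287909 on the minus strand and the second at chr17:34305770-34305849 on the plus strand.
H2-Aa: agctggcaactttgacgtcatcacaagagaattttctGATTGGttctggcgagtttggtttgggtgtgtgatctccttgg
H2-Eb1: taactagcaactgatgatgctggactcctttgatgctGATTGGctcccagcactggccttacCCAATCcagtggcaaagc
The match began 49 bases before the start in H2-Aa and 60 before it in H2-Eb1. Searched on both strands in the 250 bases before the start, GATTGG was found for 16.6% of all 27025 genes in the promoter table and for 3 of the 27 members in it (H2-Aa, Cd53 and Cd163). A match is a description of the letters and not a measured site.

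The letters GAGGAA, part of many binding sites of the myeloid factor PU.1 (gene Spi1), were searched in the same way. They were found for 14 of the 27 members in the table and for 25.9% of all 27025 genes. One stretch is shown for Cd53, which had higher values in the libraries labelled mutant, and one for Pf4, whose change did not pass, with the motif or its reverse complement in capitals. They lie at chr3:106790150-106790229 on the minus strand and at chr5:90772355-90772434 on the plus strand.
Cd53: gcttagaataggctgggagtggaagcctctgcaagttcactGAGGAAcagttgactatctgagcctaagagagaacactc
Pf4: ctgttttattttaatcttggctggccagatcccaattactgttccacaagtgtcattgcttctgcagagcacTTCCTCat
The same letters thus stood before genes with ratios of 1.41 and 1.15. No match of one motif overlapped the other in these stretches. Spi1 itself was at 13.3, 17.6 and 11.9 FPKM in controls and 27.6, 24.9 and 25.0 in the libraries labelled mutant, a log2 change of 0.83 ± 0.13 (SE) that just missed the threshold (limma adjusted p = 0.0588).

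Set against osteoclast genes, most members changed less. The 16 osteoclast genes of a hand-written list had a mean log2 change of 0.96, with 9 past the threshold, a rise known when the list was written. For each gene, limma was also fitted to its log2 value minus the library's mean over that list. Of the 34 members, 32 changed less than the osteoclast list (adjusted p under 0.05) and 0 changed more. Of the 13164 genes tested in this way, 98.5% changed less and 0.076% more, so the members' share lay near the background.

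The 2 exceptions were Ncf4 and Cd52. The change of Ncf4 differed from that of the list by -0.10 (95% interval -0.41 to 0.21; limma adjusted p = 0.496), and that of Cd52 by -0.27 (-0.60 to 0.06; adjusted p = 0.0937). Neither interval shows that they changed alike. Ptprc and Cd53 lay in between, with differences of -0.37 (adjusted p = 0.0146) and -0.54 (adjusted p = 0.000629, limma). The C1q chains and resident macrophage genes differed by -0.72 (C1qc) to -1.09 (Axl).

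The same can be read as ratios within each library. Acp5, the osteoclast acid phosphatase gene, was at 133, 174 and 159 FPKM in controls and 488, 469 and 498 in the libraries labelled mutant. Acp5 per Adgre1 was 24.1 to 29.1 in controls and 66.8 to 76.9 in the libraries labelled mutant. Ctsk, the collagen-degrading protease gene, per C1qb went from 3.59 to 4.27 in controls to 6.79 to 8.26. Acp5 and Ctsk are on the osteoclast list, whose rise was known when it was written. Their rises exceeded the spread of Adgre1 and C1qb, so both separations were fixed by those values and are no further result.

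**Figure D3:**
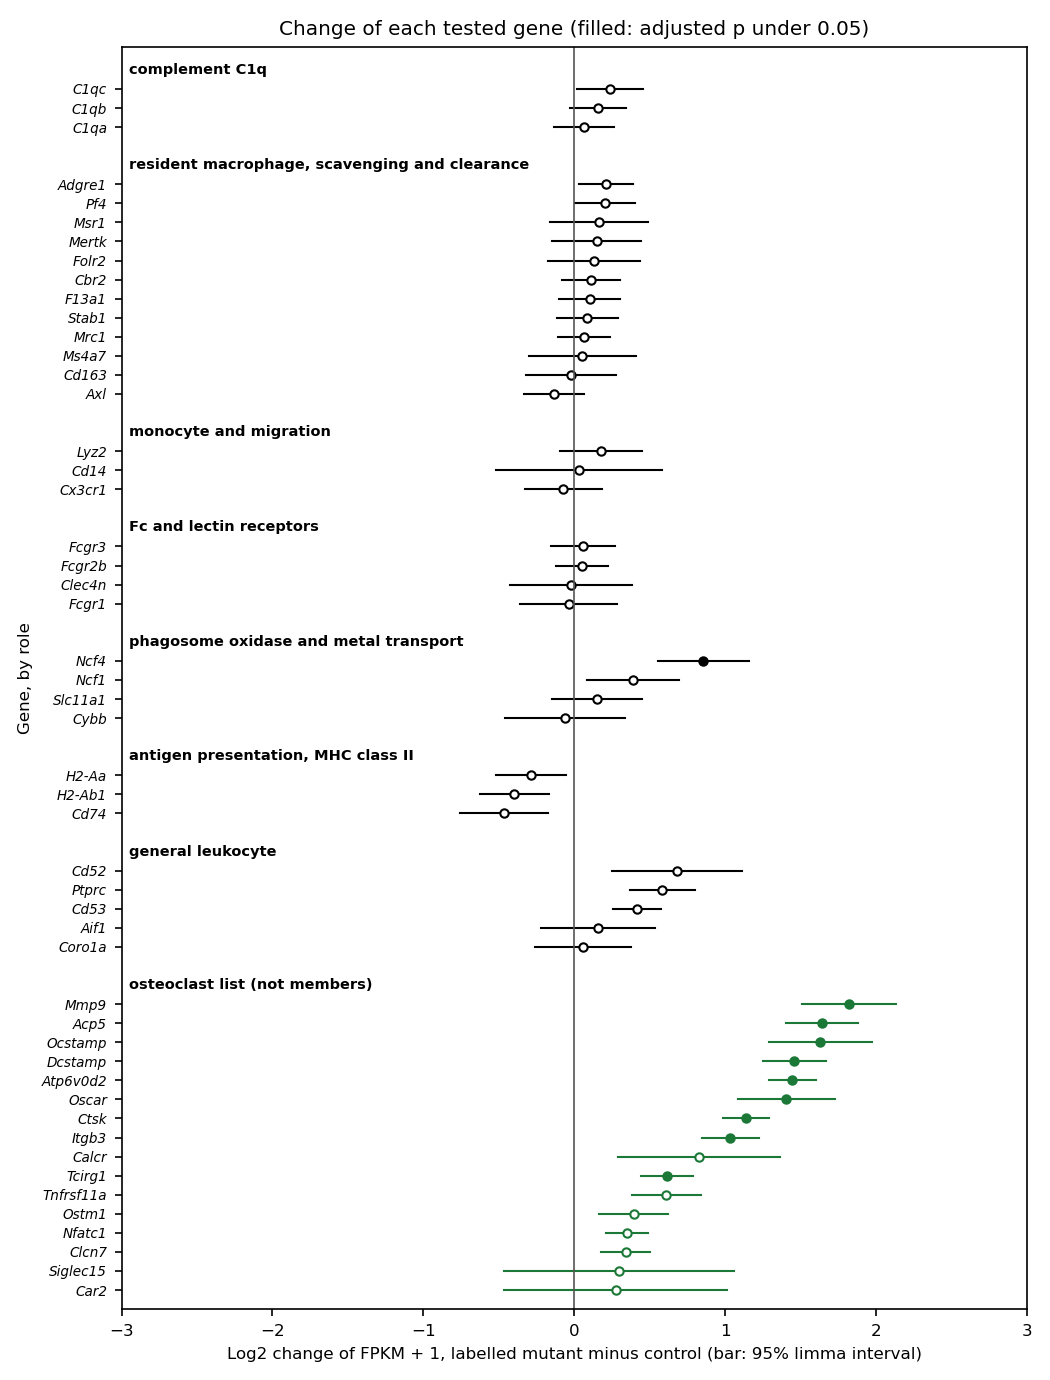
Log2 change of FPKM + 1, libraries labelled mutant minus control, with 95% limma intervals for the 34 tested members by role and for 16 osteoclast genes below. Filled points passed an adjusted p of 0.05: Ncf4 alone among the members and 9 of the osteoclast genes. The 3 class II genes lie left of 0.

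Genes that macrophages share with osteoclasts spanned a wide range. Their median log2 change was 0.54, with values from 0.11 for Trem2 to 0.98 for Cd68, beside the mean of 0.96 for the osteoclast list. Of 12 listed, 4 rose, namely Cd68, Tyrobp, Laptm5 and Csf1r, and all 12 had higher means. Over all tested genes, 0.524% rose and 50.5% had higher means, but this list was chosen with earlier results of these data known. Csf1r was at 34.4, 39.4 and 37.1 FPKM in controls and 51.0, 56.9 and 57.1 in the libraries labelled mutant (limma adjusted p = 0.0328). Cd68, a lysosomal glycoprotein gene, was at 35.8, 39.9 and 39.1 FPKM and then 78.1, 69.7 and 81.2. Tyrobp, the adaptor DAP12, had a ratio of 1.71, and Laptm5, a lysosomal membrane protein gene, 1.56. Leaving out any 1 of the libraries ended the call of Csf1r (limma adjusted p from 0.0667 to 0.118), and leaving out library 1 labelled mutant ended those of Tyrobp and Laptm5 (0.0514 for each). By contrast Trem2, a lipid-sensing receptor gene that signals through Tyrobp, had 1.08 and the protease gene Ctss 1.14, neither past the threshold.

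Another 15 macrophage genes that are not members gave no call. Of the 11 tested, 0 passed in limma and 2 were higher at an unadjusted p of 0.05, with a median log2 change of 0.18. One of these was Cd84 (ratio 1.48), while Siglec1, Lyve1 and Mpeg1 had ratios of 1.06, 1.04 and 1.14. Vsig4 and Marco, of tissue macrophages elsewhere, were under 0.5 FPKM in all libraries. Mast cell genes, another resident blood lineage, had 0 of 5 past the threshold, all with lower means, and 1 was lower at an unadjusted p of 0.05 in limma. The microglia marker P2ry12 was at 1.74 FPKM or less in every library and Siglech at 0.260 or less.

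How the libraries lay was summarised by the mean of each role group and of other lists. The mean log2 value of the 12 resident macrophage genes moved by 0.04 to 0.15 above the control mean in the libraries labelled mutant, and control 2 reached 0.07. For the 3 class II genes it lay 0.33 to 0.42 below the control mean, and controls ran from -0.10 to 0.10. For the 5 leukocyte genes it lay 0.33 to 0.41 above, and for the osteoclast list 0.90 to 1.06. The 4 oxidase and metal transport genes lay 0.24 to 0.44 above (controls -0.05 to 0.03). Means of the C1q, monocyte and Fc receptor roles overlapped the controls (0.08 to 0.22, -0.15 to 0.18 and -0.01 to 0.05). The 11 tested macrophage genes outside the members lay 0.16 to 0.21 above (controls -0.02 to 0.03). All 34 members together lay 0.09 to 0.15 above (controls -0.05 to 0.06). Neutrophil genes had distances of 1.05 and 0.70 in libraries 1 and 2 and -0.16 in library 3.

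**Figure D4:**
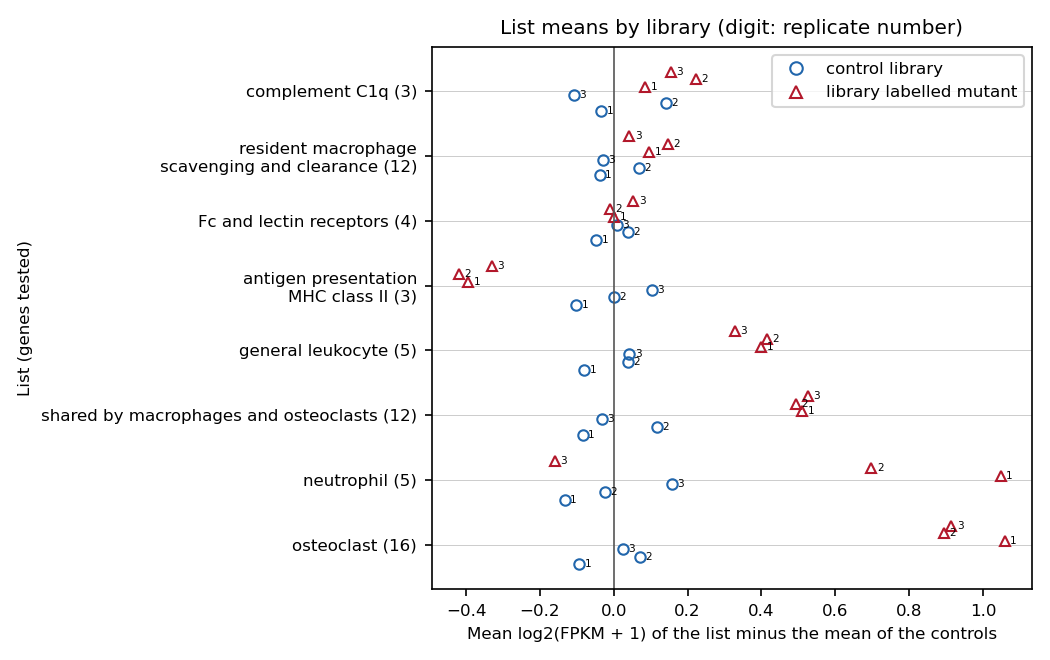
Mean log2(FPKM + 1) of each list minus the mean of the controls, 1 point per library, with the replicate number beside it and the number of genes tested in brackets. The osteoclast list lies 0.90 to 1.06 above the controls in the libraries labelled mutant, resident macrophage genes 0.04 to 0.15 above, and class II genes 0.33 to 0.42 below.

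Groups that do not overlap were counted once over all members. Of the 34, 7 had every library labelled mutant above every control (Adgre1, Pf4, Ncf1, Ncf4, Ptprc, Cd53 and Cd52) and 3 had all of them below (the class II genes), where 9.34% and 6.79% of all tested genes did so. Only Ncf4 among these 10 passed the test over all genes.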

How the data were processed

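Total RNA of homogenised calvaria was sequenced after a stranded messenger RNA preparation, per the labels' protocols. The deposited values are FPKM, made by the authors with Cufflinks and used as deposited. The submitters' processing notes name TopHat2 2.0.13, Bowtie2 2.2.3, SAMtools 0.1.19, Cufflinks 2.2.1 and mm10. The sources used here do not give annotation, options, use of strand or read totals. Cufflinks divides reads of similar or overlapping genes by a model.

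The test was limma 3.58.1 (R 4.3.3; linear model with trended eBayes, two-sided) on log2(FPKM + 1) of genes averaging 1 FPKM or more (group as the 1 term, Benjamini-Hochberg over 13180 genes at 0.05). Log2 changes are on this scale, which understates changes of low genes. Ratios are of mean FPKM. The procedure was tested on simulated data. Members and lists were chosen with earlier results of these data known. Library values are given for members past the threshold, with the smallest p, the highest level or the largest change, and for the most abundant member of each role. Adgre1, Cybb, Spi1 and other genes given beyond that rule were named after their values were seen. Some genes of the lists are counted but not reported by name here. Positions are GENCODE M21 on GRCm38, the assembly mm10 denotes. Further settings were a pseudocount of 0.1, no filter, a filter at 5 FPKM, median-of-ratios and quantile scaling, robust eBayes, a replicate block and each library left out in turn. A sex term, read from Xist and Y-linked genes, was chosen after seeing the data.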

Additional observations from a re-analysis of the deposited data

How the results depend on the processing

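Over all genes, rises numbered 69 and falls 11. They were 44 and 6 with no filter on low values and 41 and 2 with a sex term, and between 15 and 34 rises and 1 and 12 falls when 1 library was left out. The 1 member that rose, Ncf4, was lost with a pseudocount of 0.1, with no filter, with the sex term and when any 1 library was left out, all with 0 members rising, and it was below the filter at 5 FPKM (0 rising). Quantile normalization and robust eBayes gave 2 rising members, Ncf4 and Ptprc. No member fell in any of the 14 settings. Replicate numbers did not pair the libraries (correlations of deviations 0.02, -0.07 and 0.02), and the fit with the replicate number as a block gave 23 rises, 2 falls and 0 rising members. Members changing less than the osteoclast list numbered 31 to 34 in every setting with the filter at 1 FPKM or lower, and 23 of 23 at 5 FPKM.

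Direction held in every setting that tested the gene for 22 of the 34 members, the class II genes, C1q chains, Adgre1, Pf4, Ptprc, Cd53 and Cd52 included. With the sex term the log2 change reversed for Cd163 (0.0158), Cd14 (-0.16), Clec4n (0.0639) and Coro1a (-0.0255). Leaving out 1 library gave log2 changes of -0.12 to 0.12 for Cd163, -0.0102 to 0.25 for Folr2, -0.10 to 0.15 for Ms4a7, -0.14 to 0.22 for Cd14, -0.14 to 0.0273 for Cx3cr1, -0.18 to 0.0578 for Fcgr1, -0.0048 to 0.15 for Fcgr3, -0.00736 to 0.084 for Fcgr2b, -0.16 to 0.17 for Clec4n, -0.20 to 0.0611 for Cybb, -0.0827 to 0.16 for Coro1a and -0.0154 to 0.32 for Aif1. The cause was not tested. Absolute depth is unknown, so members under 1 FPKM have no stated precision.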
